A study of Mus musculus with 36 samples.

Results

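Among the stretches of RNA bound by Ago2 in mouse colonic tumours, 308 peaks carried a strong seed match for the microRNA families miR-26 or miR-30. They were taken from the authors' table of 7585 annotated peaks as those listed with an 8mer or 7m8 site of either family. Of the 308, 108 held a miR-26 site, 208 held a miR-30 site and 8 held both. The miR-30 peaks come in 2 kinds that are kept apart here, since they match different strands of the same hairpins: 148 held a site for the 5p strand (listed with miR-384-5p, which has the same seed) and 60 a site for the 3p strand of miR-30a, miR-30d and miR-30e. No measured value was used to choose the peaks.

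The tumours came from C57BL/6 mice in which Ago2, the Argonaute protein that carries microRNAs to their targets, was fused to a HaloTag, so that it could be pulled down with the RNA crosslinked to it (HEAP). Both groups carried Halo-Ago2/+, Villin-CreER/+ and Apc(fl/fl), the last for deletion of Apc in cells where the gut epithelial Villin promoter drives the tamoxifen-activated recombinase. The group called WT (6 tumours) had wild-type K-Ras alleles, and the group called G12D (6 tumours) had K-Ras-G12D/+ in addition. An enema of 4-OHT at 5 mg/ml was given at 8 to 12 weeks of age, tumour lawns were taken from moribund animals, and the minced tissue was crosslinked 3 times with 400 mJ/cm2 of UV. Each tumour gave a miRNA library and an mRNA library that are used here, and batches 1 and 2 each held 3 tumours of each genotype (replicates 1 to 3 and 4 to 6). The labels do not say that each tumour came from its own animal, and p-values measure the spread between these samples. The tissue is bulk tumour: fewer cells of a type and less RNA per cell cannot be told apart in it.

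The 2 families read different letters. A microRNA finds its targets mainly through its seed, the stretch from base 2 to base 8, which pairs with the complementary letters in an mRNA, most often in the 3′ UTR. A 7m8 site pairs with the whole seed, and an 8mer site has in addition an A opposite the first base of the microRNA. A 7A1 site has that A but lacks the pair at base 8, a 6mer lacks both, and these weaker classes were not used to choose peaks. miR-26 is known for its targets in the cell cycle and in chromatin regulation, and miR-30 for targets in differentiation and cell death. The mature sequences are shown because they define which peaks belong to which family, with the seed in capitals (RefSeq, GRCm38.p6).
miR-26a-5p: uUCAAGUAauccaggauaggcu
miR-26b-5p: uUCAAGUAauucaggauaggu
miR-30a-5p: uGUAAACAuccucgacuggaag
miR-30c-5p: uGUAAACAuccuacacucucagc
miR-30e-5p: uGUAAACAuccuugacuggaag
miR-30a-3p: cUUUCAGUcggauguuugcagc
miR-30e-3p: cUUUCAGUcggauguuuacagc
miR-30f: gUAAACAUccgacugaaagcuc
The 8mer sites computed from these seeds are the following, in capitals throughout because every letter is part of the site.
miR-26-5p site: UACUUGAA
miR-30-5p site: UGUUUACA
miR-30-3p site: ACUGAAAA
miR-26a and miR-26b share 1 seed, and miR-30a-5p, miR-30c-5p and miR-30e-5p share another. miR-30f has the same letters shifted by 1 base and so a different seed. RefSeq sequences were at hand for 12 of the 16 family miRNAs in the miRNA table.

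The miRNA libraries held 289462 to 471587 reads and the mRNA libraries 125384 to 974013 reads in peaks, apart from WT replicates 5 and 6 with 30607 and 57037. Peaks at 0 made up 59.8% of all peaks in WT replicate 5 and 34.0% in WT replicate 6, and at most 5.85% in the other 10 libraries. These 2 libraries are WT and from batch 2, so fold changes and calls between genotypes are also given without them. Of 11 colon epithelium markers 8 had a peak, and so did 3 of 9 fibroblast and smooth muscle markers (Col1a1, Col1a2 and Col3a1). None of 8 leukocyte markers and none of 4 endothelial markers had one.

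Both families were abundant on Ago2, and their levels were told apart by strand more than by family. Over the 12 tumours, miR-26a-5p averaged 12798 ± 3462 (SD, n = 12) normalised counts, where a normalised count is a read count divided by the authors' factor for the library. It was lowest in WT replicate 5 (6806), 12466 at the median and highest in G12D replicate 3 (19512). The miR-30 5p strands followed with means of 11925 ± 1923 for miR-30e-5p, 9767 ± 1920 for miR-30a-5p, 8662 ± 2017 for miR-30d-5p, 2347 ± 540 for miR-30b-5p and 1227 ± 640 for miR-30c-5p (SD, n = 12 each). The other miR-26 member, miR-26b-5p, averaged 1707 ± 306. The 3p strands that match the miR-30-3p sites were far lower, with means of 226 ± 44.9 for miR-30d-3p, 28.4 ± 9.29 for miR-30a-3p and 27.9 ± 15.9 for miR-30e-3p. miR-30f averaged 22.3 ± 7.56 and miR-26b-3p 15.5 ± 3.60, and the other 4 family strands stayed below a mean of 10.

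Of the 11 neighbouring pairs in this order, 7 differed beyond their spread over the 12 tumours (two-sided exact sign-flip permutation test, adjusted p from 0.00134 to 0.00537, smallest possible unadjusted p 0.000488). miR-26a-5p did not differ from miR-30e-5p by this test (adjusted exact p = 0.525), although it was the higher in 10 of 12 tumours. The other pairs that missed the threshold were miR-30a-3p with miR-30e-3p, miR-30e-3p with miR-30f, and miR-30f with miR-26b-3p.

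Summed over members, the miR-30 5p strands made up 9.09% ± 0.497 (SD, n = 6) of all normalised miRNA counts in WT and 8.50% ± 0.667 in G12D tumours. miR-26-5p made up 3.57% ± 0.652 and 3.90% ± 0.370. The 3p strands with the miR-30-3p seed made up 0.0778% ± 0.00484 and 0.0690% ± 0.00882. In each tumour there were 2.04 to 3.94 counts of miR-30-5p for every count of miR-26-5p, and 102 to 153 for every count of the 3p strands.

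**Figure D1:**
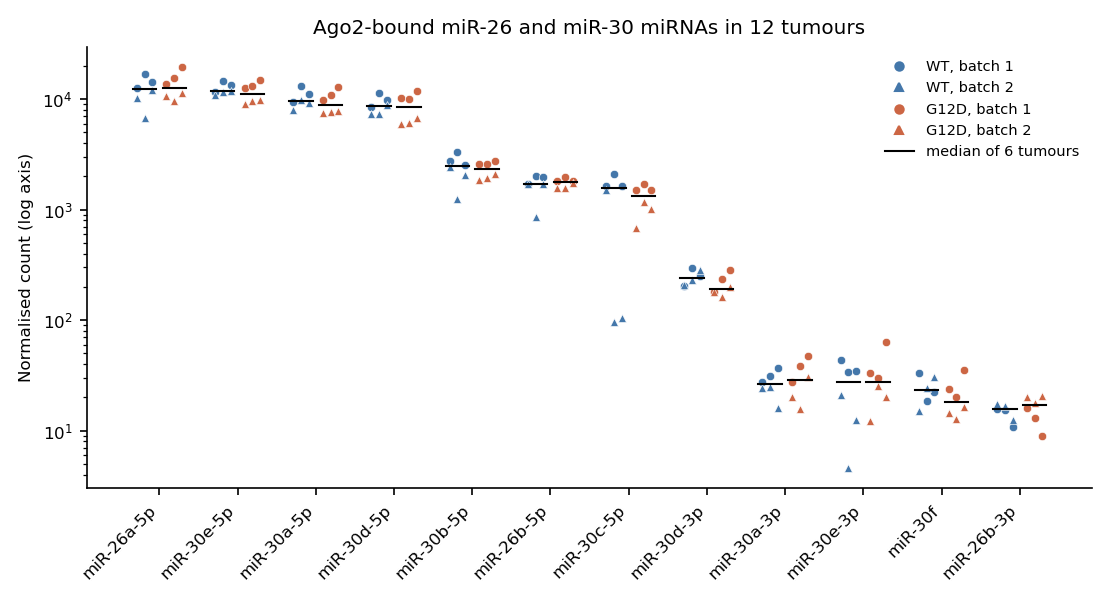
Normalised counts (log axis) of the 12 miR-26 and miR-30 miRNAs with a mean of at least 10, 1 point per tumour, with WT in blue and G12D in orange, batch 1 as circles and batch 2 as triangles, and a line at the median of 6 tumours. The 7 miRNAs with the miR-26-5p or miR-30-5p seed average at least 1227, the 3p strands average at most 226, and the 2 low blue triangles for miR-30c-5p are WT replicates 5 and 6.

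None of the 12 family miRNAs passed the test between genotypes, against a background of 3.87% of the 284 miRNAs tested (limma, adjusted p under 0.05). miR-30c-5p had the largest log2 fold change, 0.86 ± 0.61 (SE), with an adjusted p of 0.505 in limma. Its level was 95.9 in WT replicate 5 and 105 in WT replicate 6, and 689 to 2124 in the other 10 tumours. Without those 2 tumours its log2 fold change was -0.35. For miR-26a-5p the log2 fold change was 0.15 ± 0.13 (adjusted p = 0.555 in limma) and 0.12 without those 2 tumours. For miR-30e-5p it was -0.11 ± 0.08 (adjusted p = 0.501 in limma) and -0.04 without them. In normalised counts the main strands had lower means in batch 2. For miR-30d-5p the values lay between 8521 and 11795 in batch 1 and between 5905 and 8816 in batch 2. As a share of all normalised miRNA counts, the summed miR-30 5p strands overlapped between batches. They made up 8.86% to 9.90% in batch 1 and 7.75% to 9.23% in batch 2.

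The families differed in how strong their sites were. The 148 miR-30-5p peaks with an 8mer or 7m8 site compared with 71 peaks whose best miR-30-5p site was a 7A1 or 6mer, so strong sites made up 67.6%. For miR-26 the order was the other way round, with 108 strong and 229 weak, or 32.0%. For miR-30-3p there were 60 strong and 154 weak, or 28.0%. Among the 36 families with at least 50 strong peaks the median share was 43.3% and the range 25.5% to 80.8%. Of those families, 3 had a higher share than miR-30-5p, 30 a higher share than miR-26 and 32 a higher share than miR-30-3p. The letters of the sites differ in base composition, and how often each would occur by composition alone was not tested.

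Within the strong sites, 8mers made up 67.6% of the miR-26 peaks (73 of 108), 58.1% of the miR-30-5p peaks (86 of 148) and 33.3% of the miR-30-3p peaks (20 of 60). Over the same 36 families the median share of 8mers was 40.4%. By number of strong peaks, miR-30-5p ranked 15 of 88 families, miR-26 ranked 22 and miR-30-3p ranked 34. The 3 kinds had the same order by peaks as by summed miRNA level, but not in proportion: the 3p strands, at least 102 times below the 5p strands in every tumour, had 60 strong peaks to the 148 of the 5p strands. How many of those the 3p strands occupy was not measured, since a listed site is a match of letters.

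**Figure D2:**
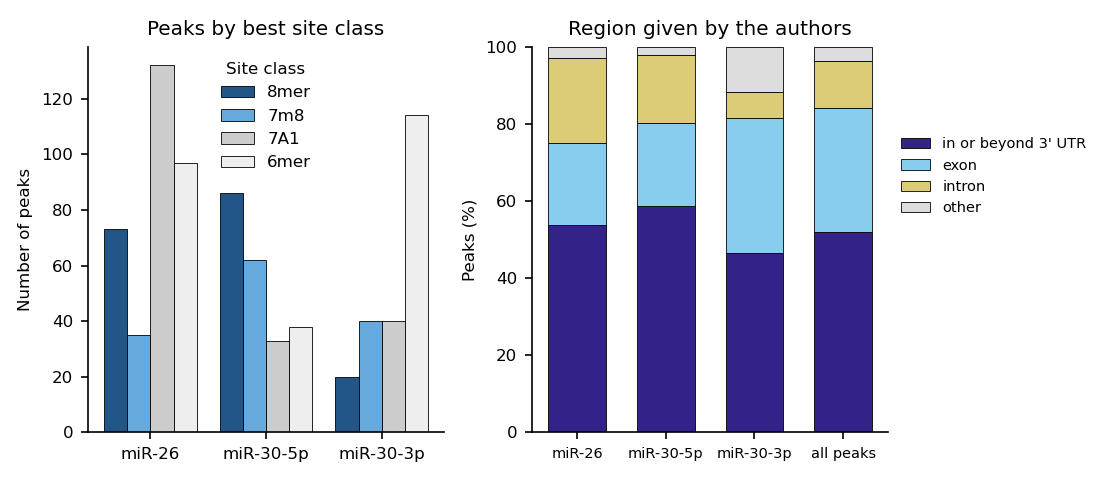
Left, number of peaks by the best site class for each family (y axis, peaks). Right, share of strong-site peaks and of all 7585 peaks in each region given by the authors (y axis, percent). Of the 3, miR-30-5p alone has more strong than weak sites (148 to 71), and miR-26 and miR-30-5p peaks lie in introns more often (22.2% and 17.6%) than all peaks (12.1%).

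Most members lay on the 3′ part of mRNAs, as all peaks did. In or just beyond a 3′ UTR were 53.7% of the miR-26 peaks, 58.8% of the miR-30-5p peaks and 46.7% of the miR-30-3p peaks, next to 51.9% of all 7585. Exons other than UTRs held 21.3%, 21.6% and 35.0%, next to 32.2% of all peaks. Introns held 24 of 108 miR-26 peaks (22.2%), 26 of 148 miR-30-5p peaks (17.6%) and 4 of 60 miR-30-3p peaks (6.67%), next to 12.1%. The intronic sites of the 2 main families were of opposite classes. The miR-26 peaks in introns were 19 8mers and 5 7m8 sites, while the miR-30-5p peaks in introns were 5 8mers and 21 7m8 sites. In or beyond the 3′ UTR the same families were alike, with 40 8mers to 18 for miR-26 and 59 to 28 for miR-30-5p. Of the members, 292 had a gene symbol found in RefSeq GRCm38.p6, and 287 of those lay within that gene's bounds.

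Peaks with a strong site were close in height to peaks without one. The median peak had a mean of 20.1 normalised counts for miR-26, 20.5 for miR-30-5p, 20.4 for miR-30-3p and 18.7 over all annotated peaks. The miR-26 peaks with an 8mer had a median of 16.7, below the 21.0 of those with a 7m8 site and the 18.6 of peaks with no miR-26 site. The miR-30-5p peaks had medians of 19.9 with an 8mer and 21.7 with a 7m8 site, next to 18.6 with no site. In or beyond 3′ UTRs the miR-30-5p peaks had the highest median, 24.1, with 21.2 for miR-26 and 19.2 for all peaks there. Means of at least 100 were reached by 7 of 108 miR-26 peaks, 16 of 148 miR-30-5p peaks and 4 of 60 miR-30-3p peaks, and by 7.16% of all peaks. These are descriptions over peaks, which share their libraries, and the level of a peak also follows the level of its mRNA.

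**Figure D3:**
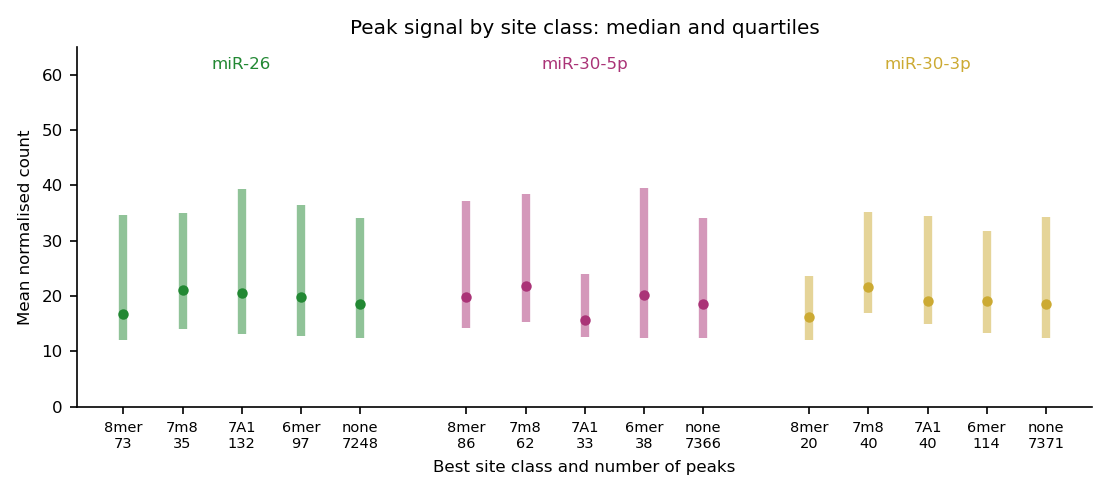
Mean normalised count over 12 mRNA libraries (y axis) for peaks grouped by their best site of each family, with the number of peaks under each class. Points are medians and bars the quartiles. The bars overlap for all classes, and the 8mer medians (16.7, 19.9 and 16.3) lie below the 7m8 medians (21.0, 21.7 and 21.6) in each family.

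The families also differed in how often another family shared the peak. A strong site of some other family was listed in 45.4% of the miR-26 peaks, in 60.1% of the miR-30-5p peaks and in 68.3% of the miR-30-3p peaks. Of the 7477 peaks without a strong miR-26 site, 64.6% held a strong site of another family, and the shares without a miR-30-5p or miR-30-3p site were 64.4% and 64.8%. In or beyond the 3′ UTR they were 29 of 58 peaks for miR-26, 53 of 87 for miR-30-5p and 23 of 28 for miR-30-3p, next to 65.7% and 65.5% of the peaks there without a miR-26 or a miR-30-5p site. Strong miR-30 sites of either strand were listed in 8 of the 108 miR-26 peaks, against 208 of all 7585 peaks. Outside these 2 families, the most frequent partner of miR-26 was the miR-200 family, in 6 peaks (5.56%, against 5.01% of all peaks). The family with most strong peaks, let-7, was listed in 4 of 108, against 9.02%. For miR-30-5p it was miR-141-3p, in 8 peaks (5.41%, against 1.73%). The positions of the sites within the peaks were not read, so listed sites of different families may share letters. Peaks named below are described by their miR-26 or miR-30 site, and some of them held strong sites of other families too.

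The authors called peaks in 1 list per genotype. Of the miR-26 peaks, 81 overlapped a peak of the G12D list alone, 27 overlapped both lists and none the WT list alone. Of the miR-30 peaks, 138 overlapped the G12D list alone, 66 both and 4 the WT list alone. Over all peaks, 71.9% overlapped the G12D list alone, 26.2% both and 1.96% the WT list alone. A peak of the G12D list alone was called only in that group, so a higher value there is not independent of the calling. By the authors' score, the median miR-30-5p peak stood at percentile 66.4 of the G12D list and the median miR-26 peak at 61.4. The median miR-30-3p peak stood at 53.8 there, next to 49.96 for all annotated peaks. Only peaks that overlapped a list had a score in it. In the WT list these were 27 miR-26 peaks, and 49 miR-30-5p peaks of both lists with 3 of the WT list alone. Their medians there were 65.7 for miR-26 and 62.3 for miR-30-5p. The order of the main families was thus reversed, but over a smaller set of peaks than in the G12D list. For miR-30-3p, with 17 peaks of both lists and 1 of the WT list alone, the median in the WT list was 40.1. It was 50.5 for all annotated peaks that overlapped the WT list.

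The highest miR-26 peak, and the highest of all members, was on Cyfip1, which encodes a subunit of the actin-regulating WAVE complex. It lay in an exon (chr7:55930046-55930102, mm10) with an 8mer and no strong site of another family. Its value was lowest at 49.8, 1071 at the median and 2053 at the highest in WT, and 1754, 2736 and 3329 in G12D. All but 1 WT tumour, replicate 4, lay below every G12D tumour. Its log2 fold change was 2.11 ± 0.68 (SE, limma, adjusted p = 0.108) and 0.72 without WT replicates 5 and 6.

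The next miR-26 peak was in the 3′ UTR of Tnrc6a (chr7:123193090-123193143), which encodes a GW182 protein that links Argonaute to silencing of the mRNA. WT tumours had 24.1, 148 and 543 as lowest, median and highest, and G12D tumours 178, 597 and 1032. The groups overlapped, and WT replicate 4 alone reached 543 while the other 5 WT tumours stayed at or below 180. A 7m8 site of miR-30-5p sat in another peak of the same UTR (chr7:123193374-123193415), with a mean of only 7.30, so Tnrc6a was among the genes with sites of both families. The 3 other high miR-26 8mers in 3′ UTRs were on Acsl3, an acyl-CoA synthetase (mean 358), Nabp1, a single-stranded DNA-binding protein (mean 128), and Vldlr, a lipoprotein receptor (mean 106). Smu1, a splicing factor, had an exonic 8mer with a mean of 252. The nucleolar protein gene Mybbp1a had an exonic 7m8 site with a mean of 195, and the nuclear long non-coding RNA Malat1 had a 7m8 site with a mean of 94.1. The higher Tnrc6a peak also held strong sites of miR-23-3p and miR-374b-5p, and the Nabp1 peak of the miR-17 family and miR-27-3p. In the Acsl3, Vldlr, Smu1, Mybbp1a and Malat1 peaks no strong site of another family was listed.

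The highest miR-30 peak was on Muc3, a membrane mucin of the gut lining (chr5:137150516-137150581, a region the authors place before the 5′ UTR). It held a 7m8 site of miR-30-3p, and strong sites of let-7, miR-140-5p and miR-34-5p as well. Its values split within both genotypes: 5711 and 3648 in WT replicates 2 and 3 and 3647 and 5144 in G12D replicates 1 and 2, but 31.3 to 264 in the other WT and 215 to 539 in the other G12D tumours. All 4 high tumours were in batch 1. The same 4 tumours were the high ones for 2 miR-26 peaks. The Eif4g2 peak, in the 3′ UTR of a translation factor gene, had 117 and 101 in those WT tumours and 90.2 and 87.8 in those G12D tumours, with at most 26.7 in any other. The peak in an intron of RP23-32A8.1 had 157, 134, 115 and 136 in them, with at most 22.5 in any other. Why these tumours stand apart was not tested.

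The highest miR-30-5p peak was an 8mer in the 3′ UTR of Ccdc71l (chr12:32379709-32379761), with a site of the miR-17 family beside it. WT tumours had 395, 645 and 1603 as lowest, median and highest, and G12D tumours 796, 1766 and 2851. Ddx6, the RNA helicase of P bodies, had a 7m8 site with a mean of 379, and a second peak with a miR-26 8mer at 14.0. Gigyf1, a partner of the cap-binding repressor 4EHP, had an 8mer in its 3′ UTR with a mean of 347. Coa4, a cytochrome oxidase assembly factor (mean 326), and Sbf1, a myotubularin-related protein (mean 231), also had 8mers in their 3′ UTRs. Twf1, which encodes the actin-binding twinfilin, had an intronic 7m8 site of miR-30-3p with a mean of 333. Strong sites of other families were also listed in the peaks on Ddx6 (miR-181-5p), Gigyf1 (miR-484) and Twf1 (miR-194-5p). The Coa4 peak held strong sites of let-7, miR-574-5p, miR-674-5p and miR-96-5p as well, and the Sbf1 peak held none of another family.

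**Figure D4:**
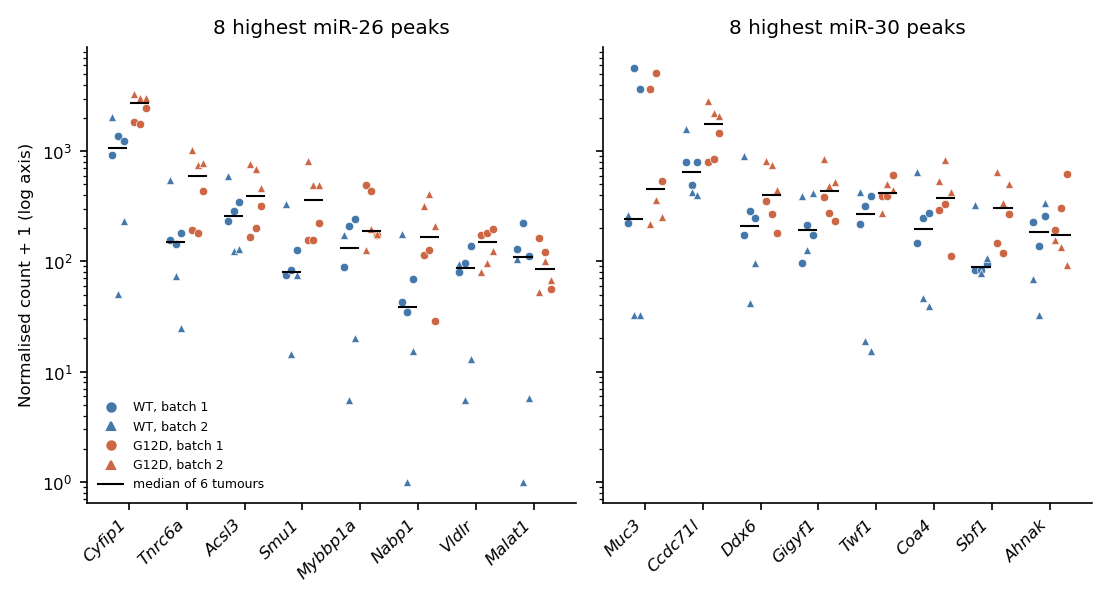
Normalised count plus 1 (log axis) of the 8 highest miR-26 peaks and the 8 highest miR-30 peaks, 1 point per tumour, with WT in blue, G12D in orange, batch 1 as circles, batch 2 as triangles and a line at the median of 6 tumours. WT replicates 5 and 6 are the low blue triangles in most peaks, and the 4 high tumours of Muc3 lie at 3647 to 5711.

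Few peaks held sites of both families, as each family had few peaks. A miR-30 site was listed in 8 of the 108 miR-26 peaks, next to 208 of all 7585 peaks. Of the 8 such peaks, 7 joined miR-26 with miR-30-5p and 1, on Erap1, joined it with miR-30-3p. The highest was in an intron of Fem1c, a ubiquitin ligase receptor, with 40.2 to 165 in G12D and 0 to 212 in WT tumours. The next were in exons or introns of Zranb1, a deubiquitinase (mean 58.7), and Dyrk1a, a protein kinase (mean 25.4), and before the 5′ UTR of Zc3h11a, an mRNA export factor (mean 20.4). Ubn2, a subunit of a histone chaperone complex, had both sites in its 3′ UTR (mean 12.1). Counting separate peaks, 19 genes had more than 1 member peak. Ahnak, a very large scaffold protein, had the most with 3 of its 23 peaks, all of miR-30. Slc36a1, a proton-coupled amino acid transporter, had a miR-30-5p 8mer with a mean of 147 and a miR-26 8mer at 8.76.

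Some genes reported in the literature as targets were among the members. The lists were drawn up from general knowledge of the literature, with earlier results of these data known. Of 22 genes reported for miR-26, 13 had a peak of any kind and 2 of these had a miR-26 peak: Ccnd2, the gene of cyclin D2 (8mer in the 3′ UTR), and the DNA demethylase gene Tet3. Over all 3914 genes with a peak, 105 had a miR-26 peak and 202 a miR-30 peak. Ezh2, Cdk6, Hmga2 and Gsk3b, all on that list, had 1, 2, 1 and 2 peaks and no listed miR-26 site of any class in them. Of 23 genes reported for miR-30, 12 had a peak and 5 of these had a miR-30 peak, among them Ccne2, Socs3 and Tnrc6a with a miR-30-5p site and Galnt7 with a miR-30-3p site. Trp53, Prdm1, Galnt1 and Sox9 had peaks without a listed miR-30 site of any class. None of the list genes' member peaks passed limma between genotypes.

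Ccnd2 had 0 to 20.6 normalised counts in WT (median 14.6) and 12.9 to 39.1 in G12D (median 36.6), with 5 of 6 G12D tumours above every WT tumour. Its log2 fold change was 2.17 ± 0.74 (SE, limma, adjusted p = 0.108) and 0.91 without WT replicates 5 and 6. Ccne2, which encodes cyclin E2 and is on both lists, carried a miR-30-5p 8mer and no miR-26 site. It had 0 to 10.4 in WT (median 8.65) and 9.40 to 20.8 in G12D (median 19.1), with the same 5 of 6 count and a log2 fold change of 1.82 ± 0.71 (adjusted p = 0.111 in limma), or 0.79 without WT replicates 5 and 6. The Ccnd2 and Ccne2 peaks overlapped the authors' G12D list alone, the group where they were higher. Socs3, a suppressor of cytokine signalling, had a miR-30-5p 8mer with medians of 64.5 and 72.8, and groups that overlapped widely.

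Other lists held few members. In the Argonaute and GW182 list, 6 of 7 genes had peaks, 27 in all, and only those on Tnrc6a were members. Of 11 polycomb repressive complex 2 genes, 7 had peaks and Jarid2 had the 1 member, a miR-30-3p 7m8 site with a mean of 42.7. Of 17 GalNAc transferase genes, which start mucin-type glycans, 4 had peaks and Galnt7 had the 1 member. The host genes of the families had 3 peaks and no member.

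Between genotypes, 305 members could be tested, and 3 with a mean under 5 were left out: peaks on Col5a2 and Brd2, and 1 on mt-Nd5 at 0 in every library. No member passed limma (adjusted p under 0.05), and neither did any of the 7527 peaks tested, a background of 0%. At an unadjusted p under 0.05, 48 of 108 miR-26 peaks and 58 of 205 miR-30 peaks were higher in G12D, with a background of 35.9%. None was lower, with a background of 0.173%. Without WT replicates 5 and 6 the counts of higher peaks were 19 of 108 and 27 of 205, with a background of 14.3%. The median log2 fold change was 1.33 over all tested peaks, 1.51 for miR-26 (range -0.42 to 3.13) and 1.22 for miR-30 (range -0.87 to 2.57), and it was 1.23 for the 5p and 1.18 for the 3p sites.

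Relative to all tested peaks the miR-26 median was thus 0.18 higher and the miR-30 median -0.11 on the log2 scale. In each library, the median log2 value of a family was also taken relative to that of all tested peaks. Between libraries of 1 genotype and batch it varied by 0.13 for miR-26 and 0.23 for miR-30 (SD). Each SD is that of levels in a single library, not of a median fold change. Above the median of all peaks lay 61 of 108 miR-26 peaks and 85 of 205 miR-30 peaks. Without WT replicates 5 and 6 the median over all peaks was 0.38, and the family medians relative to it were 0.08 and -0.10. In batch 1 alone they were 0.20 and -0.09, and in batch 2 alone 0.09 and -0.11. For miR-26 it was 0.015 without WT replicate 6 alone, 0.07 without G12D replicate 5 alone and 0.0044 over the 56 peaks within 3′ UTRs.

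**Figure D5:**
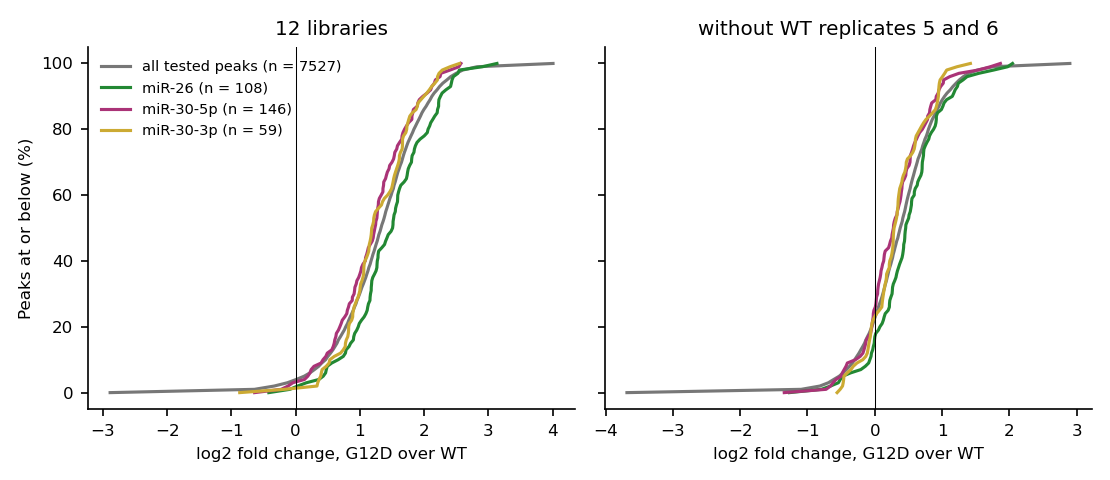
Cumulative share of peaks (y axis, percent) by log2 fold change of G12D over WT (x axis), for all tested peaks and the 3 kinds of member, with all 12 mRNA libraries (left) and without WT replicates 5 and 6 (right). All curves lie mostly right of 0, move left together without those libraries, and stay close to that of all peaks, with miR-26 slightly to its right and both kinds of miR-30 slightly to its left.

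The number of calls changed with 1 library and with the pseudocount. Without WT replicate 4, limma called 63 of 108 miR-26 peaks and 85 of 205 miR-30 peaks, all higher in G12D, with a background of 45.1% of tested peaks. That fit had only WT replicates 5 and 6, with 30607 and 57037 reads, as WT libraries of batch 2. With every library and 5 instead of 1 added before taking logs, limma called 10 and 8, all higher, with a background of 6.72%.

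A count test on the recovered reads gave calls among the members, all of them higher in G12D. DESeq2 called 8 of 108 miR-26 peaks and 17 of 205 miR-30 peaks higher, 7.41% and 8.29%, with a background of 10.1% of tested peaks. It called none of the members lower, with a background of 0.359%. Without WT replicates 5 and 6 it called 3 and 4, with a background of 2.59%. The authors' deposited table also has 8 miR-26 and 17 miR-30 peaks higher and none lower, with a background of 9.92% of its peaks. edgeR's quasi-likelihood test called no member and 10 peaks in all. The member shares were thus below the background in each of these counts except that for miR-26 without the 2 libraries, where 3 of 108 came to 2.78%.

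The member with the largest log2 fold change among those with a mean of at least 20 was a miR-26 7m8 site in the 3′ UTR of Cdx2 (chr5:147301388-147301449), the transcription factor that sets intestinal identity. Its values were 0, 7.30 and 20.7 as lowest, median and highest in WT, and 17.3, 56.6 and 159 in G12D. Of 6 tumours in each group, 5 WT tumours lay below all G12D tumours and 5 G12D tumours above all WT tumours. The log2 fold change was 3.13 ± 0.76 (SE, limma, adjusted p = 0.108), and 1.99 without WT replicates 5 and 6. DESeq2 gave an adjusted p of 0.000792 for this peak, and 0.000482 without WT replicates 5 and 6. The peak overlapped the authors' G12D list alone, the group where it was higher, and these p-values do not allow for that. Cdx2 is also on the epithelium marker list, whose 36 peaks summed to 766 to 10036 in WT (median 5749) and 4127 to 10111 in G12D (median 8401). The 10 peaks on the 3 fibroblast and smooth muscle markers summed to 18.1 to 649 in WT (median 115) and 211 to 659 in G12D (median 409). The part of these levels in the result was not tested.

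Among miR-30 peaks with a mean of at least 20, the largest log2 fold change was at a 7m8 site of miR-30-3p in the 3′ UTR of Nek6 (chr2:38585597-38585651), which encodes a mitotic kinase. Nek6 had 2.41, 21.2 and 63.2 in WT and 62.9, 114 and 172 in G12D, so that the groups met at a single tumour on each side. Its log2 fold change was 2.55 ± 0.70 (SE, limma, adjusted p = 0.108), and 1.42 without WT replicates 5 and 6. DESeq2 gave an adjusted p of 0.00964, and 4.35e-05 without WT replicates 5 and 6. In both batches the fold change had the same sign, at 1.47 in batch 1 and 3.63 in batch 2. A strong site of miR-23-3p was listed in the same peak.

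Among the others chosen by fold change were a miR-26 8mer in an intron of Cd38, an NAD-consuming enzyme (log2 fold change 2.93 ± 0.93, adjusted p = 0.108 in limma), and the Nabp1 peak (2.55 ± 0.93, adjusted p = 0.108 in limma). For miR-30 they were Nrbp1, a pseudokinase (2.26 ± 0.85), and Itpk1, an inositol phosphate kinase (2.39 ± 0.90). Zc3h11a, with sites of both families, had 0 to 8.95 in WT and 2.41 to 80.2 in G12D, and a log2 fold change of 2.54 ± 0.85 (adjusted p = 0.108 in limma, 0.0130 in DESeq2). Without WT replicates 5 and 6 that log2 fold change was 1.80 and the adjusted p in DESeq2 was 0.0756, which no longer passed the threshold. In Cd38, Nabp1, Nrbp1 and Itpk1, WT replicates 5 and 6 held at most 14.5 normalised counts. Without those libraries the 4 log2 fold changes were between 0.46 and 0.91. The Cd38, Itpk1 and Zc3h11a peaks overlapped the authors' G12D list alone, the group where they were higher. Strong sites of other families were listed in the peaks on Cd38 (miR-674-5p), Nrbp1 (miR-17 family and miR-19-3p), Itpk1 (miR-21-3p) and Zc3h11a (miR-194-5p and miR-21-3p).

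The negative log2 fold changes moved with WT replicates 5 and 6. RP23-32A8.1 had -0.42 ± 0.86 and Eif4g2 -0.10 ± 0.73, the 2 peaks that were high in the 4 tumours described with Muc3, and without WT replicates 5 and 6 the values were -1.27 and -0.80. P2ry6, a nucleotide receptor, had a miR-30-5p 8mer and -0.15 ± 0.61, or 0.08 without them. Sh3bgrl, with a 7m8 site of miR-30-3p, had -0.87 ± 0.75, or -0.11 without them. It had 131 in WT replicate 5 and 3.95 to 26.5 in the other WT tumours. None of the 4 passed limma, with adjusted p from 0.325 to 0.908.

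In 3 of the 305 tested members, every G12D tumour lay above every WT tumour, with a background of 1.7% of tested peaks, and no further member did without WT replicates 5 and 6, with a background of 1.94%. They are named here after their values were seen. Kif13b, a kinesin, had a miR-26 8mer with 4.82 to 13.6 in WT and 16.0 to 23.1 in G12D. Hs3st1, a heparan sulfate sulfotransferase, had a miR-26 7m8 site with 0 to 7.58 in WT and 9.26 to 19.7 in G12D. Slc35d1, a nucleotide sugar transporter, had a miR-30-5p 8mer with 0 to 6.91 in WT and 6.94 to 12.9 in G12D. All 3 lay in exons and had low means, and DESeq2 gave them adjusted p of 0.0468, 0.0274 and 0.0384, while limma gave 0.149, 0.113 and 0.108. Without WT replicates 5 and 6 the limma log2 fold changes were 1.17, 1.24 and 1.87, and DESeq2 gave no adjusted p for them.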

How the data were processed

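Ago2-bound RNA was measured in mRNA and miRNA libraries of 12 colonic tumours. The third library type, which the labels call IC, was not used here. The authors deposited read counts per peak and per mature miRNA divided by a factor per library, a normalised signal, per the file headers and values: all values above 0 in a library came out as whole multiples of the value of 1 read, within 0.001. Per the submitters' processing notes, the tools were STAR 2.5.2b and DESeq2 and the builds mm10 and GRCm38, with no step given for any of them. How the authors called peaks is not stated. The log2 fold changes and adjusted p-values in the authors' deposited tables are theirs, as are the score of each peak, its gene, region and seed sites. Peak table columns name tumours without a library type and were read as the mRNA libraries.

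Values plus 1 were log2-transformed and fitted with limma-trend 3.58.1 (R 4.3.3) over all peaks with a mean of at least 5, or miRNAs with a mean of at least 10, with genotype and batch as terms and Benjamini-Hochberg adjustment. Adjusted p under 0.05 counted as a call. edgeR 4.0.16 and DESeq2 1.42.0 (with the recovered reads), another pseudocount, no filter, TMM factors, no batch term, each batch alone, a replicate block and leaving out libraries were tried. The steps were tested on simulated data. Replicate numbers did not pair the tumours: same-numbered mRNA libraries had correlations of -0.52 to 0.31. Named peaks were the 8 highest per family, the 4 with the most positive and most negative fold change per family among means of at least 20, the 6 highest with both families, list genes, and genes with the most members. The members and lists were chosen with earlier results of these data known. Some items are not reported here.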

Additional observations from a re-analysis of the deposited data

Results flagged for a closer look

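In 11 cases a single tumour stood far from the other 5 of its genotype by Dixon's gap test, among 114 groups of 6 tumours examined, where chance flags about 1 in 20 groups. WT replicate 4 was high in 7 peaks: Ccdc71l (1603, other WT tumours 395 to 797), Ddx6 (908, others 40.8 to 286), Tnrc6a (543, others 24.1 to 180), Smu1 (331, others 13.6 to 126), Sbf1 (321, others 77.0 to 106), Zranb1 (111, others 0 to 38.6) and Ubn2 (29.6, others 2.41 to 8.32). The same library, left out, moved the members' calls in limma most, and WT replicates 5 and 6 were then the only WT libraries of batch 2. The Sh3bgrl peak was high in WT replicate 5 (131) and in G12D replicate 4 (35.0, others 1.93 to 13.5). The Itpk1 peak was high in G12D replicate 5 (145, others 35.0 to 72.6). miR-26b-5p was low in WT replicate 5 (856, others 1708 to 2032).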

How the results depend on the processing

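Of 57 named peaks and miRNAs, 31 kept the sign of their log2 fold change under every alternative listed here. None was called in the limma fit of the report, and 28 were called under at least 1 alternative. The alternative without WT replicate 4 by itself called 45.1% of all tested peaks higher, and some named peaks were chosen by their fold change. Peaks called between genotypes, 0 with limma, were 513 with a pseudocount of 5, 787 with DESeq2, 10 with edgeR, 3 without WT replicates 5 and 6, 203 with DESeq2 without them (added after seeing the data), 234 in batch 2 alone, and 0 to 3404 when 1 library was left out. miR-26 peaks called were 10, 8, 0, 0, 3, 6 and 0 to 63 in the same order, and miR-30 peaks called 8, 17, 0, 0, 4, 2 and 0 to 85. In each case the highest count came without WT replicate 4. The 11 miRNAs called became 27 with DESeq2, 20 with DESeq2 without WT replicates 5 and 6, 6 without the batch term, 1 in batch 1 and 0 in batch 2 alone, and 5 to 16 when 1 library was left out. With the replicate number as a block, 6 miRNAs and 0 peaks were called, and the numbers do not pair the tumours. The miR-26 median relative to all peaks, 0.18, was 0.0069 with a pseudocount of 5, 0.0044 for 3′ UTR peaks alone and 0.015 to 0.24 when 1 library was left out, while the miR-30 median, -0.11, was -0.019 with that pseudocount, -0.19 for 3′ UTR peaks alone, -0.20 for 8mers alone, -0.18 with TMM factors and -0.14 to -0.07 when 1 library was left out.

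With TMM factors the median over all peaks was 0.62, and the log2 fold changes of Acsl3 (-0.43), Ahnak (-0.44), Gigyf1 (-0.0027), Slc36a1 (-0.37), Ubn2 (-0.15) and the lower Tnrc6a peak (-0.22) turned negative. Without WT replicates 5 and 6 the sign turned for Acsl3 (-0.22), Coa4 (-0.023), Ddx6 (-0.062), Dyrk1a (-0.086), Fem1c (-0.48), Malat1 (-0.52), P2ry6 (0.078), RP24-227O16.1 (-0.46), Rb1 (-0.019), Socs3 (-0.0016), the lower Tnrc6a peak (-0.65), Ubn2 (-0.020), miR-26b-3p (-0.040), miR-26b-5p (-0.036), miR-30c-5p (-0.35), miR-30d-5p (0.011) and miR-30f (0.050). In batch 1 alone it turned for Acsl3 (-0.36), Malat1 (-0.51), P2ry6 (0.27), Socs3 (-0.19), the lower Tnrc6a peak (-0.49), miR-26b-3p (-0.14), miR-26b-5p (-0.015), miR-30a-5p (0.012), miR-30c-5p (-0.18), miR-30d-5p (0.13), miR-30e-5p (0.041) and miR-30f (0.097). In batch 2 alone it turned for Eif4g2 (0.23), miR-30a-3p (-0.0048) and miR-30b-5p (0.094), and with DESeq2 and edgeR for RP24-227O16.1 (-0.010 and -0.0078). Leaving out 1 library gave -0.41 to 0.32 for Eif4g2, -0.33 to 0.045 for P2ry6, -0.98 to 0.29 for RP23-32A8.1, -0.14 to 1.01 for the lower Tnrc6a peak, -0.045 to 0.18 for miR-26b-5p and -0.14 to 0.071 for miR-30b-5p. The cause of these turns was not tested. A median member had about 20 normalised counts, and WT replicates 5 and 6 held few reads, which limits single peaks most.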
